A study of Homo sapiens with 4 samples.

Results

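The interferon-stimulated genes examined here are 47 genes that cells switch on in response to interferon, given as a list of gene symbols. All 47 were found in the count tables by their current symbol, among 60279 annotated genes, of which 29056 had at least 1 read in some library. SUM159 is an established human triple-negative breast cancer cell line, and mRNA libraries were read from 4 cultures with 1 library each: untreated cells, cells given palbociclib, cells given indisulam and cells given the combination. The question asked of the list was whether an interferon response was part of the effect of either drug or of the combination. The sample labels state doses of 0.5 µM (palbociclib) and 2 µM (indisulam) over 10 days, whereas the series description gives 2 µM, 3 µM and 16 h. The study's methods tie the shorter exposure at the higher doses, in technical duplicates, to separate paired-end libraries made to count splicing errors, and describe single-end libraries for expression. The labels are followed here, but the count tables do not show how the reads were made, so the conflict was not settled from the files. All cultures shared the same medium, which held serum, insulin and hydrocortisone, a glucocorticoid. With 1 count table per condition, there was no replicate error, no test was made and no p-value is given.

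Interferons are secreted proteins that cells release on sensing viral or misplaced nucleic acid. They bind surface receptors whose kinases, JAK1 and TYK2 for the type I receptor, phosphorylate STAT proteins. STAT2 acts with IRF9 in a complex that binds the interferon-stimulated response element (ISRE) in promoters of the genes listed here, while interferon-gamma acts through a different element, the gamma-activated site. The products of the listed genes bind viral RNA, block viral entry, degrade RNA, tag proteins with ISG15, attract T cells or feed back on the pathway. Palbociclib blocks CDK4 and CDK6, kinases that drive entry into the cell cycle, and indisulam recruits the splicing factor RBM39 to the DCAF15 ubiquitin ligase for degradation.

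The ISRE core GAAANNGAAA, searched on both strands of the 300 bases around each start site in RefSeq (250 before to 50 after it, GRCh38.p14), was present at 28 of the 38 members that had such a window, which is 73.7%, against 4.38% of the 27305 genes with a window. The shorter gamma-activated site TTCNNNGAA, a motif that reads the same on both strands, was present at 13 of the 38, or 34.2%, against 9.38% of all genes. Windows were not given for IRF7, OAS2, GBP2, IFIT2, TRIM22, IFITM2, MX2, USP18 and OASL. The stretches that hold the ISRE core are shown for 7 members, to set promoters of genes that were higher in the combination (ISG15, IFIT3 and RSAD2) beside those of genes that were lower (IFI44L) or past the threshold in no comparison (IFI6, BST2 and LGALS3BP). Each is written 5′ to 3′ on the strand of its gene, and capitals mark the core or its reverse complement, together with an overlapping second copy where there is one. ISG15 is at chr1:1013369-1013414 on the plus strand, IFIT3 at chr10:89332420-89332502 on the plus strand, RSAD2 at chr2:6877617-6877656 on the plus strand, IFI44L at chr1:78620269-78620399 on the plus strand, IFI6 at chr1:27672261-27672363 on the minus strand, BST2 at chr19:17405730-17405775 on the minus strand and LGALS3BP at chr17:78979957-78979996 on the minus strand.
ISG15: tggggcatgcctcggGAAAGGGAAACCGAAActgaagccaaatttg
IFIT3: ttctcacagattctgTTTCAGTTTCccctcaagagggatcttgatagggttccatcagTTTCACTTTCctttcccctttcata
RSAD2: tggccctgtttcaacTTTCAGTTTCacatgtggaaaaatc
IFI44L: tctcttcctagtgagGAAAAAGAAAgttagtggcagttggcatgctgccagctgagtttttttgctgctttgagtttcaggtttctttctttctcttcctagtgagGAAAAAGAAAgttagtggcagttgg
IFI6: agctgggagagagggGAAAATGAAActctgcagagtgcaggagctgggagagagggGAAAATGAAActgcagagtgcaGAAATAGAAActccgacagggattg
BST2: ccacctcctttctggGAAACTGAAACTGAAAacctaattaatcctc
LGALS3BP: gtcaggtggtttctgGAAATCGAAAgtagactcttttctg

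IFIT3 has a further start site in RefSeq, and the stretch before it at chr10:89327826-89327899 also holds 2 copies of the core. The IFI44L stretch holds the same 10 letters at both of its matches, in a repeated segment, and the IFI6 stretch holds 3 matches. The core was found at 3 of the 7 members with a window that were higher in the combination than in untreated cells, at 1 of 3 that were lower and at 23 of 26 that passed in neither direction. A match describes letters in this window only, and the absence of one says nothing about the factor.

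Libraries held between 12555908 and 16712174 reads in genes. Levels are given as CPM, the reads of a gene per 1000000 reads in genes, and 3 reads, the limit that a count of 0 allows, corresponded to between 0.180 and 0.239 CPM. A gene was compared where its mean was at least 1 CPM, which left 14269 genes, and it was called higher or lower where the ratio of 2 libraries was at least 2-fold and its 95% counting interval excluded a ratio of 1. Intervals cover counting error only, and differences are log2 ratios unless a fold is named. Of 8 epithelial, basal and mesenchymal markers, 6 had a mean of at least 1 CPM and the rest did not. Among those read, the mesenchymal marker VIM was between 2642 and 4598 CPM and the epithelial keratin KRT8 between 416 and 575 CPM. The 8 markers summed to 15596, 23461, 16625 and 18624 CPM in untreated, palbociclib, indisulam and combination. Most of that came from markers not shown here. VIM and KRT8 alone do not settle the identity of the cells. The oestrogen receptor gene ESR1 had between 4 and 16 reads. It is 1 of 3 receptor genes listed as lacking in triple-negative breast cancer, with PGR and ERBB2. Of the 3, 1 had a mean of at least 1 CPM, and their RNA summed to 143, 138, 110 and 115 CPM in untreated, palbociclib, indisulam and combination. CD3E and NKG7, which mark T and natural killer cells, had no read. The immune markers PTPRC and CD14 were read in every library, at 12.2, 12.5, 17.5 and 11.1 CPM and 9.24, 5.44, 3.95 and 4.6 CPM in the order untreated, palbociclib, indisulam and combination, and the 7 immune markers summed to between 16.1 and 21.6 CPM. Their part in the results was not tested. Without replicates, the spread of the departure from additivity over genes served as a guide to the error of a ratio between libraries. If libraries err independently, it bounds the typical SD of a log2 ratio at 0.62 for genes at 1 to 5 CPM, 0.37 at 5 to 20 CPM, 0.26 at 20 to 100 CPM and 0.28 above 100 CPM.

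The list did not move as a block with either drug. Of its 47 members, 45 reached the filter and were compared, with CMPK2 and CXCL10 below it. RSAD2 and CXCL11 reached it only through treated libraries, as each stood at 0.319 CPM in untreated cells, so counts over the members compared are descriptions and not support for a response. With palbociclib, 1 of the 45 was called higher and 2 lower, or 6.67%, beside 10.7% of all genes called (5.85% higher and 4.89% lower). With indisulam, 6 were higher and 2 lower, or 17.8%, beside 15.1% of all genes (8.39% higher and 6.69% lower). In the combination, 8 were higher and 5 lower, or 28.9%, beside 23.5% of all genes (12.9% higher and 10.5% lower). These shares at 2-fold lay near those of all genes. The median log2 ratio to untreated cells over the 45 was 0.04 under palbociclib, 0.02 under indisulam and 0.19 under both drugs, beside -0.02, 0.06 and 0.05 over all genes compared. The indisulam median changed sign with other scalings, to -0.05 with TMM factors. Without RSAD2 and CXCL11, the members called were 0 higher and 2 lower under palbociclib, 4 and 2 under indisulam and 6 and 5 under both drugs. These comparisons share the untreated library. In bulk libraries such as these, a change in the share of cells that express a gene and a change in RNA per cell cannot be told apart.

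**Figure D1:**
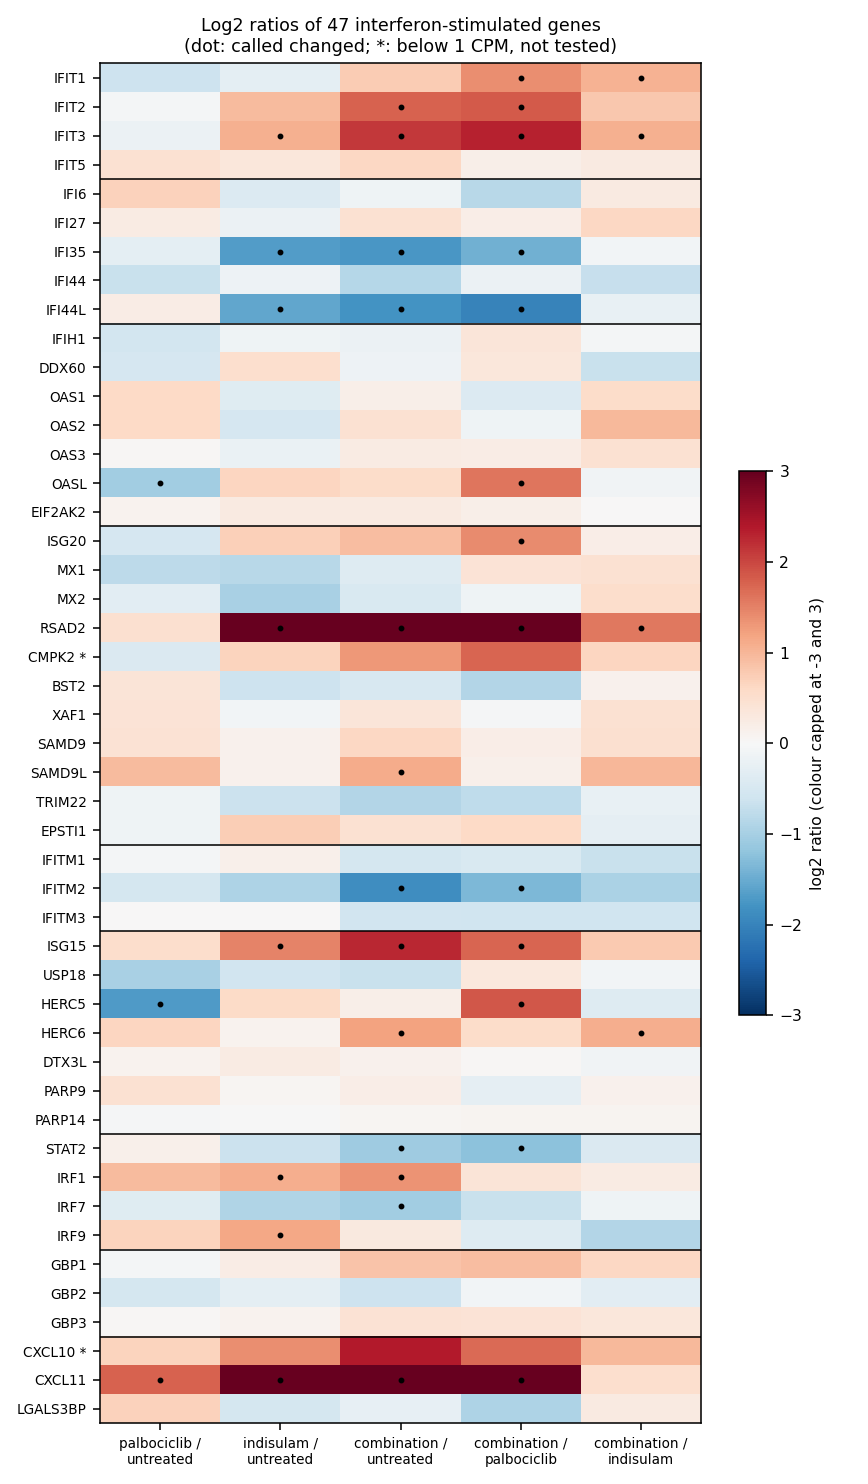
Heat map of the log2 ratio of each of the 47 members (rows, grouped by role) in the 5 comparisons between libraries (columns), with red for higher, blue for lower and a dot where the member was called. Red and blue stand side by side within most role groups, and the darkest red cells belong to RSAD2 and CXCL11.

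By level, 18 of the 45 were highest in the combination (40.0%, beside 30.2% of all genes) and 10 in untreated cells (22.2%, beside 26.2%). With palbociclib 10 were highest (22.2%, beside 19.8%) and with indisulam 7 (15.6%, beside 23.8%). The 18 include RSAD2 and CXCL11. Summed over the 47 members, the level was 3505 CPM in untreated cells, 4083 under palbociclib, 3104 under indisulam and 3162 under both drugs. LGALS3BP and IFITM3 had the highest levels of the members in that sum. LGALS3BP, a secreted glycoprotein that binds galectins, was at 925 CPM in untreated, 1487 in palbociclib-treated, 647 in indisulam-treated and 779 in combination-treated cells. It was highest with palbociclib and lowest with indisulam, and it was not called in any comparison. Per kilobase of the canonical transcript, levels in untreated cells ran from 1045 CPM per kilobase for IFITM3 and 420.2 for LGALS3BP down to 0.0935 for RSAD2 and 0.0772 for CMPK2. Most of the list was therefore read at some level without any drug.

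No interferon gene was read. All 21 interferon ligand genes on the pathway list, IFNB1 among them, had 0 reads in the 4 libraries, which allows up to 3 reads in each. The libraries were made from polyadenylated RNA at the end of treatment, so earlier or non-polyadenylated transcripts were not measured. Among the receptor and kinase genes compared, none was called under palbociclib alone or under both drugs. JAK2, a kinase of the interferon-gamma receptor named here after its values were seen, was called higher with indisulam, at 1.36 (95% interval 1.19 to 1.54). IFNAR1 and IFNAR2, the chains of the type I receptor, were at 56.1, 87.4, 62.6 and 89.4 CPM and 22.1, 25.9, 29 and 22.5 CPM in the order untreated, palbociclib, indisulam and combination, and were not called.

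Genes that sense nucleic acid were mixed. RIGI, a cytosolic sensor of viral RNA that interferon also induces, was at 8.84 CPM in untreated, 17.5 in palbociclib-treated, 36.1 in indisulam-treated and 47.8 in combination-treated cells. Each treated library was above untreated cells, and RIGI rose by 2.02 (95% interval 1.73 to 2.31) with indisulam and 2.42 (95% interval 2.14 to 2.71) in the combination, while its palbociclib value of 0.98 fell just short of 2-fold. DHX58, a relative of RIGI that regulates RNA sensing, was at 29.1, 15, 19.2 and 11.2 CPM and fell by 1.37 on the log2 scale in the combination. CGAS, the cytosolic DNA sensor, gave log2 ratios to untreated of -0.16, 0.66 and 0.48, and its adaptor STING1 gave -0.07, -0.34 and -0.19. RIGI and DHX58 were the only 2 of the 13 sensing genes compared that were called in the combination, 15.4% beside 23.5% of all genes.

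The transcription factors of the pathway moved in opposite directions. STAT2, a member of the ISRE-binding complex, was at 199 CPM in untreated, 222 in palbociclib-treated, 128 in indisulam-treated and 95 in combination-treated cells. It stood lower in both libraries with indisulam, and fell by 1.07 on the log2 scale in the combination, a 2.1-fold decrease. IRF1, which drives many genes of the interferon-gamma response, was at 19.99 CPM in untreated, 38.9 in palbociclib-treated, 42.5 in indisulam-treated and 50.8 in combination-treated cells. All 3 treated libraries stood above untreated cells. IRF1 rose by 1.09 (95% interval 0.88 to 1.29) with indisulam and 1.34 (95% interval 1.13 to 1.55) in the combination, and palbociclib gave 0.96. Adding either drug to the other gave 0.38 and 0.25, both under 2-fold. The antisense gene IRF1-AS1 overlaps 22.9% of the IRF1 exon bases, and whether reads were counted by strand was not given in the sources used here.

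IRF7 and IRF9 were read at low depth. IRF7, which amplifies interferon production, had 60, 47, 42 and 33 reads in the order untreated, palbociclib, indisulam and combination, and fell by 1.03 on the log2 scale in the combination, or gave -0.95 with a pseudocount of 5. IRF9, the DNA-binding member of the ISRE-binding complex, had 17, 28, 52 and 24 reads, and was called higher with indisulam, at 1.16 (95% interval 0.39 to 1.93). That ratio and the combination ratio of IRF7 were 1.86 and 1.66 times the bound on the SD given above for their level. In the combination IRF9 was close to its untreated level. Of the 65-base stretches (the length of a single-end read in the expression libraries) of the canonical IRF9 transcript, 92.8% also belong to a read-through gene on the same strand, so how reads were shared between them bears on its value.

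The IFIT genes, whose products form complexes that bind foreign RNA, gave 2 of the 8 members called higher in the combination. Their summed level was 105 CPM in untreated cells, 103 under palbociclib, 168 under indisulam and 302 under both drugs. IFIT3 was at 30.5 CPM in untreated, 26.9 in palbociclib-treated, 64 in indisulam-treated and 134 in combination-treated cells. Palbociclib alone gave -0.18, and IFIT3 rose by 1.07 (95% interval 0.90 to 1.24) with indisulam and by 2.13 (95% interval 1.97 to 2.29) in the combination, a 4.38-fold increase, and the combination was also called above each drug alone. With TMM or upper-quartile factors the indisulam value was 0.996 or 0.997, just under 2-fold. IFIT2 was at 27.1 CPM in untreated, 26 in palbociclib-treated, 52.6 in indisulam-treated and 92.8 in combination-treated cells. Indisulam alone gave 0.96, just short of 2-fold, and the combination gave a rise of 1.77 (95% interval 1.60 to 1.95).

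The remaining IFIT genes differed from this pattern, although all 4 lie in a cluster on chromosome 10. IFIT1, the cap-binding member, was at 19.4 CPM in untreated, 12.5 in palbociclib-treated, 16 in indisulam-treated and 32.9 in combination-treated cells. Each drug alone left it below untreated cells by under 2-fold, and it was highest in the combination, where it was called above palbociclib by 1.39 (95% interval 1.13 to 1.65) and above indisulam by 1.04 (95% interval 0.82 to 1.25) but gave only 0.76 against untreated cells. IFIT5 was at 27.6, 37.6, 35.1 and 42.1 CPM and was not called in any comparison.

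RSAD2 and the chemokines had few reads in untreated cells. RSAD2, the radical SAM enzyme viperin, had 4, 6, 57 and 148 reads in the order untreated, palbociclib, indisulam and combination, or 0.319, 0.473, 3.41 and 10.3 CPM. It rose by 3.16 (95% interval 1.83 to 4.49) with indisulam and 4.74 (95% interval 3.44 to 6.03) in the combination, and the combination was above indisulam alone by 1.58 (95% interval 1.14 to 2.01). CXCL11, a ligand of CXCR3, the chemokine receptor of activated T cells, had 4, 16, 165 and 200 reads. It was the only member called higher with palbociclib, at 1.77 (95% interval 0.32 to 3.23), and rose by 4.67 (95% interval 3.38 to 5.97) with indisulam and 5.17 (95% interval 3.87 to 6.46) in the combination. Both genes had 4 reads in the untreated library, so the size of these ratios rests on few reads.

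CXCL10, another CXCR3 ligand, lies beside CXCL11 on chromosome 4 and had 4, 7, 16 and 28 reads. Its mean was under 1 CPM and it was not compared with the rest, and its log2 ratio in the combination was 2.38 (95% interval 0.99 to 3.76). CMPK2, a mitochondrial nucleotide kinase whose gene overlaps RSAD2 head to head on the opposite strand, had 3, 2, 7 and 10 reads. Its 3 reads in untreated cells gave a log2 ratio in the combination of 1.31, with an exact counting interval of -0.41 to 4.04, which spans 0.

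ISG15 and its enzymes did not move together. ISG15, a ubiquitin-like protein that is attached to other proteins, was at 13.7 CPM in untreated, 19.6 in palbociclib-treated, 38.3 in indisulam-treated and 66.1 in combination-treated cells. Its levels stood in the order untreated, palbociclib, indisulam, combination, with no overlap of their counting intervals, and it rose by 1.48 (95% interval 1.24 to 1.72) with indisulam and 2.26 (95% interval 2.03 to 2.50) in the combination, 2.79-fold and 4.8-fold. HERC5, the main ligase that attaches ISG15, was at 15.5 CPM in untreated, 4.73 in palbociclib-treated, 22.9 in indisulam-treated and 17.5 in combination-treated cells. It was lowest with palbociclib, where it fell by 1.69 on the log2 scale, and the combination differed from untreated cells by 0.18. HERC6, a related ligase whose gene neighbours HERC5 on chromosome 4, was at 15.2 CPM in untreated, 23.9 in palbociclib-treated, 16.4 in indisulam-treated and 35.1 in combination-treated cells and rose in the combination by 1.20 (95% interval 0.96 to 1.44). USP18, which removes ISG15 and restrains the type I receptor, was at 9.16, 4.65, 6.16 and 5.78 CPM. It was highest in untreated cells, and none of its ratios reached 2-fold. Of its 65-base stretches, 46.8% are shared with USP41 and other copies. PARP9, its partner DTX3L and the related PARP14, which act in DNA damage and antiviral responses, were called in no comparison, and PARP14 stayed between 129 and 137 CPM.

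**Figure D2:**
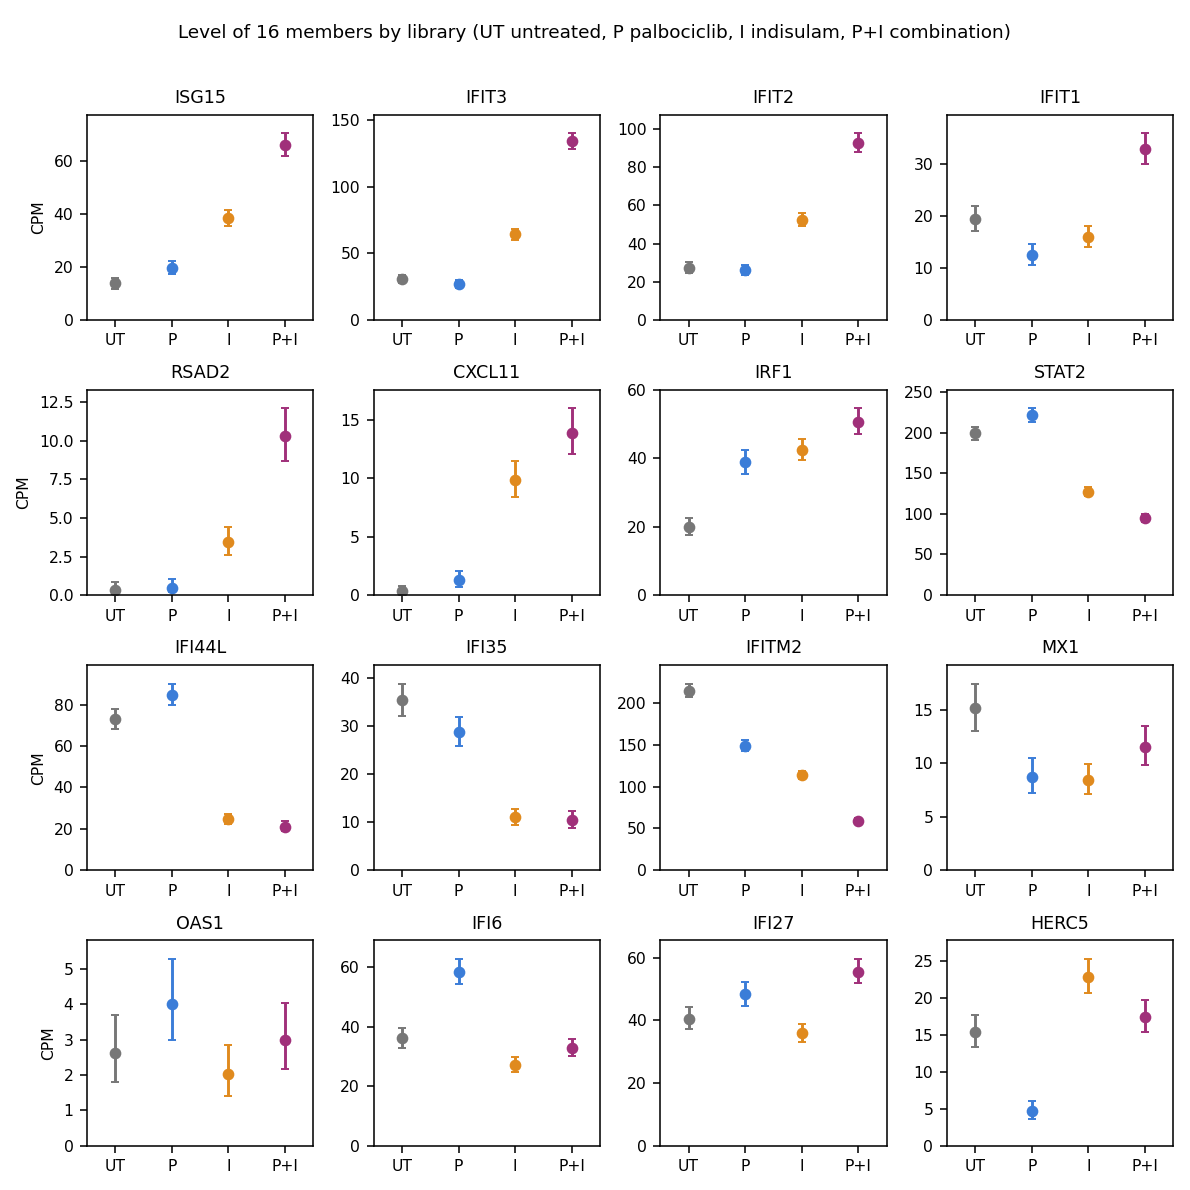
Level in CPM (vertical axes, each from 0) of 16 members in the 4 libraries (horizontal axes), with points for the library value and bars for the 95% Poisson counting interval. ISG15, IFIT3, IFIT2, RSAD2 and CXCL11 are highest in the combination, whereas STAT2, IFI44L, IFI35 and IFITM2 are lowest in it.

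Of 5 genes named for interferon induction, 2 were lower with indisulam and in the combination, beside 6.69% and 10.5% of all genes, and 0 were higher, beside 8.39% and 12.9%. IFI44L, an interferon-induced protein of the IFI44 family, was at 72.9 CPM in untreated, 84.9 in palbociclib-treated, 24.8 in indisulam-treated and 21.1 in combination-treated cells. The indisulam and combination libraries were both well below the untreated and palbociclib libraries, and it fell by 1.55 on the log2 scale with indisulam and by 1.78 in the combination, 2.94-fold and 3.45-fold. Its neighbour on chromosome 1, IFI44, was at 61.7, 38.8, 55.1 and 34.3 CPM and was not called. IFI35 was at 35.4 CPM in untreated, 28.8 in palbociclib-treated, 11.1 in indisulam-treated and 10.5 in combination-treated cells. It fell by 1.67 with indisulam and by 1.75 in the combination, and palbociclib gave -0.30.

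IFI6 and IFI27, small membrane proteins often used as markers of type I interferon, were not called in any comparison. IFI6 was at 36.1 CPM in untreated, 58.4 in palbociclib-treated, 27.2 in indisulam-treated and 32.9 in combination-treated cells and was highest with palbociclib. IFI27 was at 40.5 CPM in untreated, 48.4 in palbociclib-treated, 36 in indisulam-treated and 55.6 in combination-treated cells and was highest in the combination. The IFI6 exons overlap LINC02574 on the same strand, which holds 20.3% of its 65-base stretches.

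Of the 3 IFITM proteins, which block the fusion of viruses with cell membranes, IFITM2 fell in the combination and the others were not called. IFITM2 was at 215 CPM in untreated, 149 in palbociclib-treated, 114 in indisulam-treated and 58.8 in combination-treated cells. Each drug alone left it below untreated cells by under 2-fold, and the combination was lowest of the 4, where it fell by 1.87 on the log2 scale, a 3.64-fold decrease. IFITM3 was at 638, 649, 647 and 429.7 CPM, alike in the first 3 libraries and with its smallest value in the combination, and IFITM1 was at 94, 89.6, 105 and 65.6 CPM. These genes share sequence, with 53.0% of the 65-base stretches of IFITM1, 14.6% of those of IFITM3 and 9.13% of those of IFITM2 found in other genes, so reads may have moved between them.

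The OAS enzymes, which make the second messenger that activates RNase L, and the sensors of double-stranded RNA were called in few cases. OASL, an OAS relative that aids RNA sensing, was at 42.2 CPM in untreated, 20.4 in palbociclib-treated, 66.4 in indisulam-treated and 62.1 in combination-treated cells. It fell by 1.05 on the log2 scale with palbociclib alone and stood above untreated cells in both libraries with indisulam, by under 2-fold. OAS1 had 33, 51, 34 and 43 reads, and its intervals overlapped zero change in each comparison. OAS2, OAS3, IFIH1, DDX60 and the kinase EIF2AK2 were called in no comparison, and EIF2AK2 stayed between 102 and 123 CPM.

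Among other antiviral effectors, SAMD9L, a growth-restraining factor, was at 19.5 CPM in untreated, 37.9 in palbociclib-treated, 21.2 in indisulam-treated and 42.4 in combination-treated cells. It stood higher in both libraries with palbociclib, by 0.96 against untreated cells and by just under 2-fold against indisulam alone, and rose in the combination against untreated cells by 1.12 (95% interval 0.90 to 1.33). MX1, a dynamin-like GTPase that traps viral nucleoproteins, was at 15.1 CPM in untreated, 8.75 in palbociclib-treated, 8.44 in indisulam-treated and 11.6 in combination-treated cells. It was highest in untreated cells and was not called, and nor was MX2. BST2, which tethers budding virus, XAF1, SAMD9, TRIM22 and EPSTI1 were called in no comparison. The exonuclease gene ISG20, at 3.5, 2.44, 5.8 and 6.69 CPM, was called only in the combination against palbociclib and is named here after its values were seen. Guanylate-binding proteins GBP1, GBP2 and GBP3, GTPases that attack microbes inside cells, were called in no comparison. GBP1 was nearest, at 60.8, 58.1, 71.5 and 111 CPM.

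The layout gave each drug effect 2 estimates that share no library, 1 in the absence of the other drug and 1 in its presence. For indisulam, ISG15, IFIT3, RSAD2 and CXCL11 were called higher in both, 4 of 45 beside 4.86% of all genes, and IFI35 and IFI44L lower in both, 2 of 45 beside 3.66%. RSAD2 and CXCL11 reached the filter only through treated libraries, and without them 2 of 43 were higher in both and 2 lower. With TMM or upper-quartile factors, 3 of 45 were higher in both. Opposite calls were made for 0 members and for 0.182% of all genes. In the combination against palbociclib alone, 9 members were higher and 4 lower, or 28.9%, beside 16.9% of all genes (9.56% higher and 7.38% lower). Without RSAD2 and CXCL11, 7 were higher and 4 lower, or 25.6%. The second estimate of the indisulam effect was 1.75 for ISG15, 2.31 for IFIT3, 4.25 for RSAD2, 3.39 for CXCL11, -1.45 for IFI35 and -2.0 for IFI44L on the log2 scale. IFIT1, IFIT2, OASL, HERC5 and ISG20 were called higher in the second estimate and not in the first, and STAT2 and IFITM2 lower. Of these, the estimates themselves differed past the threshold for IFIT1 and HERC5, as the departure from additivity below shows. The ratios of OASL and HERC5 were 1.60 and 1.87, against a palbociclib library in which both genes were at their lowest.

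**Figure D3:**
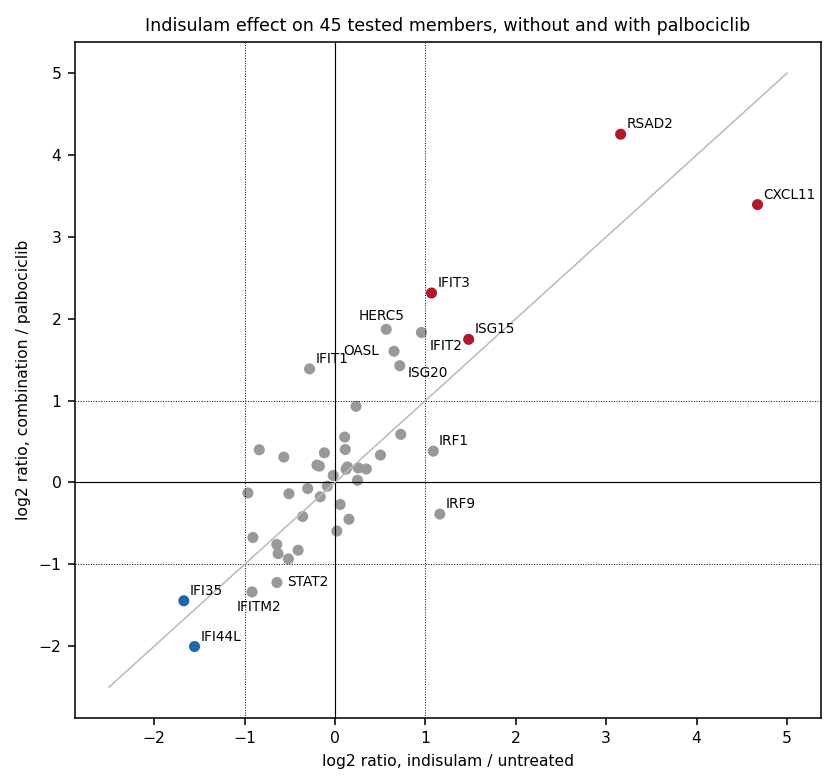
Log2 ratio of indisulam to untreated cells (horizontal axis) against that of the combination to palbociclib (vertical axis) for the 45 members compared, 2 estimates that share no library, with a line of equality and dotted lines at 2-fold. Red points were called higher in both (RSAD2, CXCL11, ISG15 and IFIT3) and blue points lower in both (IFI35 and IFI44L), and most grey points lie between the dotted lines.

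For palbociclib, no member was called in the same direction in both estimates, beside 1.99% of all genes higher and 1.25% lower in both. In the combination against indisulam alone, IFIT1, IFIT3, RSAD2 and HERC6 were higher and 0 were lower, 8.89% beside 8.19% of all genes (5.04% higher and 3.15% lower). Without RSAD2 and CXCL11 the members called were 6.98%. HERC6 and SAMD9L came nearest to a shared rise, with 0.65 and 1.09 for HERC6 and 0.96 and 0.995 for SAMD9L. The median of the 45 was 0.20 in this comparison, beside -0.01 over all genes. Only IFIT3 and RSAD2 were called higher in the combination than in each of the other 3 libraries, beside 1.96% of all genes, and 0 members were lower than in each, beside 1.06%.

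The departure from additivity is the log2 ratio of the combination to untreated cells minus the sum of the ratios for each drug alone. It was called above 0 for 4 members, beside 3.93% of all genes, and below 0 for 1, beside 3.84%, together 11.1% of the members and 7.77% of all genes. IFIT1 departed by 1.67 (95% interval 1.31 to 2.03), HERC5 by 1.30 (95% interval 0.83 to 1.78), IFIT3 by 1.25 (95% interval 1.01 to 1.48) and MX1 by 1.24 (95% interval 0.77 to 1.70). For IFIT1, MX1 and HERC5 at least 1 drug alone left the gene below untreated cells, and the combination stood above that sum. IRF9 departed by -1.55 (95% interval -2.64 to -0.45), on 17 to 52 reads. ISG15, IFIT2, RSAD2, CXCL11, STAT2 and IFITM2 were not called, so for these the ratios for each drug alone added up to that of the combination to within 2-fold or the counting error. The median departure over the 45 was 0.05, beside 0.01 over all genes.

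Of the 17 members taken as canonical, IFI6, IFI27, OAS1, MX1 and USP18 were called in none of the 5 comparisons between libraries. They are grouped here by that outcome. Of these, OAS1 had between 33 and 51 reads, and USP18 shares 46.8% of its 65-base stretches with other genes. Among the other canonical members, CXCL10 was below the filter. ISG15, IFIT2, IFIT3, RSAD2, IRF1, IRF9 and CXCL11 were called higher in a comparison with untreated cells. IFIT1 was called higher in the combination against each drug alone. IFI44L, STAT2 and IRF7 were called lower in a comparison with untreated cells.

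Other genes of the pathway, from lists not used to choose the members, were set beside them. These lists were also chosen with earlier results of these data known, so their shares are descriptions and not independent support. Of 13 genes of the interferon-gamma and IRF1 programme compared, 1 was called higher under palbociclib, 3 under indisulam and 5 under both drugs, and 0 lower in any of these. The shares higher were 7.69%, 23.1% and 38.5%, beside 5.85%, 8.39% and 12.9% of all genes, and the median log2 ratios were 0.25, 0.35 and 0.48. IDO1 was the gene called with palbociclib, and IDO1, GBP4 and SOCS1 those with indisulam, SOCS1 being named after its values were seen. In the combination the genes called were IDO1, GBP4, GBP5, TAP2 and CIITA. IDO1, which degrades tryptophan, had 1, 47, 111 and 164 reads. It reached the filter only through treated libraries and is counted in each share of the 13 genes called higher. Its single read in untreated cells gave a log2 ratio of 6.25 in the combination, with an exact counting interval of 4.67 to 12.48. TAP2, a peptide transporter of antigen presentation, was at 17.5, 31.8, 26.6 and 49.2 CPM, and rose by 1.48 (95% interval 1.27 to 1.70) in the combination. GBP5, a relative of the 3 members named above, was at 7.88, 11.8, 12.4 and 20.7 CPM, and rose by 1.38 (95% interval 1.06 to 1.71). CIITA, the master regulator of MHC class II genes, had 21, 35, 36 and 53 reads.

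Of 20 further interferon-stimulated genes outside the list, 0 were called under palbociclib, 1 under indisulam and 4 under both drugs. These were 0%, 5.0% and 20% of the genes compared, beside 10.7%, 15.1% and 23.5% of all genes. Their median log2 ratios were -0.11, 0.02 and 0.02. LAMP3 was the gene called with indisulam. SP140L, RTP4 and LAMP3 were higher in the combination, and RNF213, a very large ubiquitin ligase, was lower, at 503, 372, 336 and 238 CPM. LAMP3 had 9, 2, 34 and 23 reads, and its exact counting interval in the combination, -0.01 to 2.46, reached below 0. Of 7 negative regulators of interferon signalling, SOCS3 and PTPN6 were lower in the combination, beside 10.5% of all genes. SOCS3, which blocks JAK kinases after cytokine signals, was at 91.5, 53.2, 51.5 and 24.4 CPM and fell by 1.90 on the log2 scale.

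Target genes of NF-kB, the factor of inflammatory signalling, stood mostly higher in the libraries with indisulam. Of 10 compared, 2 were higher under palbociclib, 6 under indisulam and 5 under both drugs, and 0 were lower. The shares higher were 20%, 60% and 50%, beside 5.85%, 8.39% and 12.9% of all genes, and the median log2 ratios were 0.50, 1.35 and 1.66. Those called with palbociclib were CCL2 and IL6. TNFAIP3, a feedback inhibitor of NF-kB, was at 22.7, 40.1, 156 and 182 CPM, and its log2 ratios to untreated cells were 0.82, 2.78 and 3.0. IL6 was at 1.83, 4.57, 28.3 and 36.8 CPM, with ratios of 1.29, 3.90 and 4.28. BIRC3, an inhibitor of apoptosis, gave 0.72, 2.60 and 2.38. CXCL11, RSAD2 and ISG15 also stood higher in both libraries with indisulam, and the part of NF-kB in their levels was not tested.

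**Figure D4:**
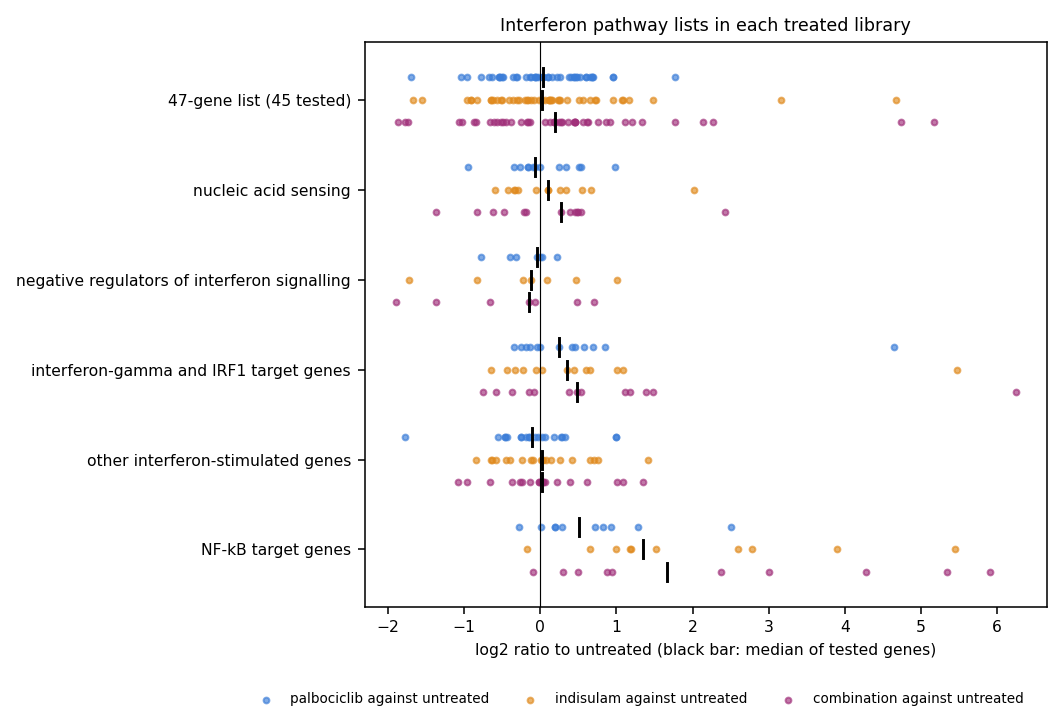
Log2 ratio to untreated cells (horizontal axis) of each gene compared in the 47-gene list and in 5 further lists (rows), coloured by treated library, with a black bar at the median. The members centre near 0 in each library, with medians of 0.04, 0.02 and 0.19, while the NF-kB target genes lie mostly to the right.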

How the data were processed

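Poly(A) RNA of SUM159 cells was sequenced in 4 libraries, 1 per condition. The authors deposited raw counts of reads per Ensembl gene for each library. The submitters' processing notes name TopHat2 2.1, HTSeq and the GRCh38 genome. The annotation release and the strand setting were not given in the sources used here. Tally entries that name no gene, between 9.61% and 10.1% of the counted reads, were kept out of the totals, which ran from 12555908 to 16712174.

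Counts were divided by each library's total in genes and expressed as CPM, and log2 ratios were formed on counts scaled to the mean total, with a pseudocount of 1. A 95% interval was taken from the Poisson variance of the counts, which covers counting error only. Genes with a mean of at least 1 CPM were compared, and a gene was called at 2-fold or more with an interval excluding a ratio of 1. With 1 library per group, edgeR's quasi-likelihood test could not be run and no p-value was computed. Whether technical duplicates were pooled was not given in the sources used here. Calculations were made in Python 3.11.15 with numpy 2.4.6, pandas 2.3.3 and scipy 1.17.1, and were tested on simulated data.

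Members, lists and comparisons were chosen with earlier results of these data known. Genes named are 17 canonical members, up to 10 further members called in each comparison with untreated cells, those called alike in both estimates of a drug, and up to 6 genes per pathway list called in the combination. Other members are named for completeness, and some genes are not reported here. Gene models and the shared 65-base stretches come from GENCODE 44, promoter sequences from RefSeq, matched by symbol. Scaling by edgeR 4.0.16 TMM and upper-quartile factors or DESeq2 1.42.0 size factors, other pseudocounts, filters, thresholds and intervals, and leaving out members with similar copies were tried as alternatives. Leaving out RSAD2 and CXCL11, or IRF9 and USP18, was chosen after seeing the data.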

Additional observations from a re-analysis of the deposited data

How the results depend on the processing

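Counts of members called depended on the fold threshold and on little else. At 1.5-fold, the members called were 13 with palbociclib (28.9%, beside 24.8% of all genes), 19 with indisulam (42.2%, beside 31.4%), 22 in the combination (48.9%, beside 42.5%), 21 in the combination against palbociclib (46.7%, beside 32.8%) and 16 against indisulam (35.6%, beside 22.2%). At that threshold 13 members departed from additivity (28.9%, beside 18.8%), and 4 were called alike in both estimates of palbociclib (8.89%, beside 9.68%) and 15 in both of indisulam (33.3%, beside 18.6%). At 3-fold, the members called were 3 with indisulam (6.67%, beside 6.1% of all genes), 8 in the combination (17.8%, beside 10.7%), 8 against palbociclib (17.8%, beside 7.12%) and 0 against indisulam (beside 2.29%), with 1 departure (2.22%, beside 2.94%) and 2 in both estimates of indisulam (4.44%, beside 3.49%). The last 2 were RSAD2 and CXCL11, which reached the filter only through treated libraries. Both are among the members compared at each threshold, so these shares are descriptions and not support for a response. Of 166 counts and medians under the alternatives, the other 152 stayed within 1.5 times (counts) or moved by less than the typical counting interval (medians). The members' median with indisulam changed sign around 0, at -0.05 with TMM factors, -0.04 with size factors, -0.05 with upper-quartile factors and -0.02 without RSAD2 and CXCL11. Of 895 ratios of 24 named members, 0 reversed. IFIT3 with indisulam gave 0.996 with TMM factors and 0.997 with upper-quartile factors, just under 2-fold. IRF7 in the combination gave -0.95 with a pseudocount of 5. SAMD9L in the combination against indisulam passed 2-fold with upper-quartile factors, at 1.03, and without mitochondrially encoded genes, at 1.02. No scaling moved the median of all genes by over 0.1. No paired analysis was possible because each group had 1 library. Depth limits CMPK2, CXCL10, RSAD2, CXCL11, OAS1, ISG20, IRF7 and IRF9, which had 60 reads or fewer in untreated cells.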
